A study of Arabidopsis thaliana with 21 samples.

Results

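PYK10, JAL33 and JAL34 encode a glucosidase and 2 lectins that occur together in Arabidopsis roots. They were described here over all 6 treatment groups of an array study of auxin and 2 compounds. The genes were chosen by name, with earlier results of these data known. Every probe set that the annotation pairs with PYK10 (also called BGLU23), JAL33 or JAL34 was taken. There was 1 probe set for each, so 3 probe sets of the 22746 tested are the subject. All 3 were read on all 21 arrays, and none was lost to a filter on low signal in the fit reported.

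PYK10 (AT3G09260) is a myrosinase-type beta-glucosidase that carries an ER retention signal and accumulates in ER bodies, spindle-shaped compartments that are continuous with the endoplasmic reticulum and are abundant in roots and young seedlings of the Brassicales. When a cell is broken, PYK10 meets its substrates, among them indole glucosinolates and coumarin glucosides, and aggregates with jacalin-related lectins and GDSL lipase-like proteins into large complexes. JAL33 (AT3G16450) and JAL34 (AT3G16460) are such lectins and belong to the type that enlarges the complexes, whereas JAL22 and JAL23 belong to the type that limits their size. The transcription factor NAI1 is needed for ER bodies and for the expression of PYK10, and NAI2 is an ER body protein needed to form them. In the RefSeq gene table for TAIR10.1, JAL33 and JAL34 are next to each other on chromosome 3, and the annotated ends of JAL34 and of the next lectin gene JR1 (also called JAL35) overlap. No genome build is named for the arrays, so no coordinates are printed. Related lectins are similar in sequence, and how far the probes tell them apart was not tested.

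The seedlings were wild-type Col-0, per the file headers, and were grown for 7 days in the light in liquid culture with sucrose before a treatment of 1 h. The groups received 5 µM IAA (indole-3-acetic acid, the natural auxin) together with 10 µM of compound A (IAA plus A, 3 arrays), 5 µM IAA with 10 µM of compound B (IAA plus B, 3 arrays), 10 µM A (4 arrays), 10 µM B (3 arrays), 5 µM IAA (4 arrays) or the solvent DMSO (4 arrays). No group carried a mutation or transgene according to these labels, and nothing in the labels says that replicate arrays stem from independent cultures, so p-values measure the spread between these arrays, which may be technical. RNA came from whole seedlings, so neither root abundance nor the place of expression could be checked, and fewer root cells and less RNA per cell cannot be told apart.

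Log2 signals ran from 3.02 to 13.9 over the table, and array medians ranged from 7.17 to 7.246. In the experiment file of the array labelled IAA 2 the treatment is written as compound B, in conflict with its label. On that array the auxin-induced gene GH3.3 stood at 13.31, above the other IAA arrays (12.79, 12.84 and 13.23) and against 8.45 to 8.65 in the B group. The glutaredoxin gene GRX480 stood at 5.18, below the other IAA arrays (5.37, 5.38 and 6.19) and against 10.26 to 10.66 in the B group. The array was the most extreme of its group for both genes, on the side away from B. It was kept as labelled, and the main differences against IAA are also given without it. Without it 246 probe sets passed in IAA against DMSO, against 435 with it. A fall in this number was not particular to IAA 2: it also fell without IAA 1, and was 212 when only the IAA and DMSO arrays were fitted. When arrays were weighted, as an alternative to the fit reported, the lowest weights were those of A 2, DMSO 2 and DMSO 4, at 0.315, 0.373 and 0.404, where 1 is the typical weight. Those 3 arrays and IAA plus B 1 stood apart in earlier work on these data and were left out together as an alternative.

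PYK10 varied little. Its log2 signal lay between 13.28 and 13.66 over all 21 arrays, a 1.31-fold range, with a pooled SD within groups of 0.09. The arrays gave 13.48, 13.40 and 13.45 in IAA plus A and 13.30, 13.29 and 13.44 in IAA plus B. They gave 13.44, 13.44, 13.28 and 13.49 in A and 13.30, 13.39 and 13.35 in B. The values were 13.59, 13.57, 13.53 and 13.46 in IAA and 13.51, 13.33, 13.53 and 13.66 in DMSO. Each group with a compound overlapped the DMSO group, whose own 4 arrays spanned nearly the whole range. The signals lie close to the top of the scale, and whether the probes were near saturation was not tested.

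JAL33 varied more, over a 2.32-fold range from 11.24 to 12.46. The arrays gave 11.86, 11.90 and 11.69 in IAA plus A and 11.28, 11.42 and 11.24 in IAA plus B. In A they gave 11.57, 11.71, 11.43 and 11.92, and in B 11.79, 11.35 and 11.61. The values were 11.88, 11.95, 11.81 and 11.80 in IAA and 11.87, 11.74, 11.97 and 12.46 in DMSO. The 3 arrays of IAA plus B were all below those of IAA and of IAA plus A, and the highest single value was that of DMSO 4.

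JAL34 spanned a 1.79-fold range, from 12.06 to 12.91. The arrays gave 12.52, 12.54 and 12.25 in IAA plus A and 12.19, 12.20 and 12.31 in IAA plus B. They gave 12.06, 12.49, 12.43 and 12.48 in A, and 12.62, 12.21 and 12.21 in B. The values were 12.69, 12.67, 12.60 and 12.61 in IAA and 12.54, 12.43, 12.57 and 12.91 in DMSO. All 3 arrays of IAA plus B and all 3 of IAA plus A lay below the 4 IAA arrays, while A and B each overlapped DMSO.

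**Figure D1:**
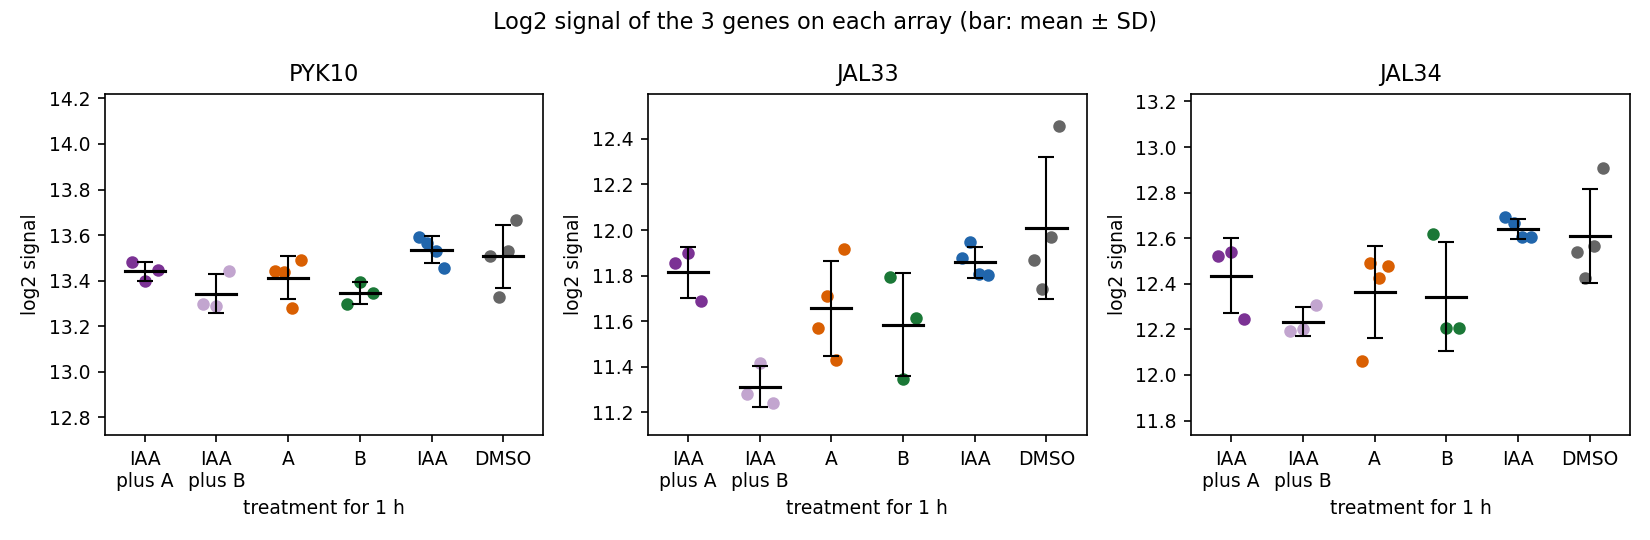
Log2 signal of PYK10, JAL33 and JAL34 on each of the 21 arrays (points), by treatment group, with the group mean and SD (bars); the 3 vertical axes have the same span. The IAA plus B arrays of JAL33, at 11.24 to 11.42, are below every IAA array, at 11.80 to 11.95, whereas PYK10 stays between 13.28 and 13.66 throughout.

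In the order of group means, from high to low, PYK10 ran IAA (13.54), DMSO (13.51), IAA plus A (13.44), A (13.41), B (13.35) and IAA plus B (13.34). No neighbours in that order were further apart than the pooled SD within groups. JAL33 ran DMSO (12.01), IAA (11.86), IAA plus A (11.81), A (11.66), B (11.59) and IAA plus B (11.31), and only the step between B and IAA plus B, of 0.27, was larger than its pooled SD of 0.20. JAL34 ran IAA (12.64), DMSO (12.61), IAA plus A (12.44), A (12.36), B (12.34) and IAA plus B (12.23), and only the step between DMSO and IAA plus A, of 0.174, was larger than its pooled SD of 0.170. All 3 genes thus had IAA and DMSO as the 2 highest groups and IAA plus B as the lowest. The 9 comparisons share arrays with each other, so this common order is not 3 independent results.

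The addition of compound B to auxin is the comparison in which members passed the test. Set against IAA alone (n = 4), IAA plus B (n = 3) had lower signals of both lectin genes, while PYK10 stayed short of the threshold. JAL33 fell by 0.55 ± 0.14 (SE) log2 units (limma adjusted p = 0.0174), with means of 11.31 ± 0.09 in IAA plus B and 11.86 ± 0.07 in IAA (SD), so that its signal was 0.685 times that of IAA. JAL34 fell by 0.41 ± 0.12 (adjusted p = 0.044), to 0.754 times the IAA signal, with means of 12.23 ± 0.06 in IAA plus B and 12.64 ± 0.04 in IAA. PYK10 had a log2 difference of -0.19 ± 0.07 (adjusted p = 0.118; 95% interval -0.34 to -0.04). With 2 of 3 members past the threshold, both lower, the background is that 8.01% of all probe sets passed in this comparison and 4.33% passed as lower. The 3 genes were chosen with earlier results of these data known, so the count beside these shares is a description and not a test. The groups did not overlap for any of the 3 members, which was true of 24.8% of all probe sets.

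Both lectin calls were close to the threshold. JAL33 lost it when IAA 2, IAA plus B 1 or IAA plus B 3 was left out, with differences of -0.51 to -0.53 and adjusted p of 0.051 to 0.0791; without IAA 2 the difference was -0.52 (adjusted p = 0.051). JAL34 lost it without any one of 11 arrays (DMSO 3, all 4 IAA arrays, A 3, IAA plus A 1 and 2, and all 3 IAA plus B arrays), with differences of -0.44 to -0.39 and adjusted p of 0.0508 to 0.139, and also without the 4 arrays that stand apart (adjusted p = 0.0625). Without IAA 2, JAL34 had a difference of -0.40 (adjusted p = 0.0947) and PYK10 of -0.18 (adjusted p = 0.219). All these values kept their direction. Over all alternatives the adjusted p in limma ran from 0.000514 to 0.0791 for JAL33 and from 0.00131 to 0.139 for JAL34, so some settings also gave much lower values.

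In the other comparisons none of the 3 members passed. B against DMSO gave log2 differences of -0.42 ± 0.14 for JAL33 (adjusted p = 0.0663), -0.27 ± 0.12 for JAL34 (adjusted p = 0.21) and -0.16 ± 0.07 for PYK10 (adjusted p = 0.195), where 8.75% of all probe sets passed. JAL33 passed in this comparison without DMSO 2 (-0.51, adjusted p = 0.0251) or without B 1 (-0.53, adjusted p = 0.0436), and PYK10 without DMSO 2 (-0.22, adjusted p = 0.0452). Here 0 of 3 members had groups that did not overlap, against 16.9% of all probe sets. A against DMSO gave -0.35 ± 0.13 for JAL33 (adjusted p = 0.106), -0.25 ± 0.11 for JAL34 (adjusted p = 0.21) and -0.09 ± 0.07 for PYK10 (adjusted p = 0.454), where 8.39% of probe sets passed and 9.21% did not overlap, but 0 of 3 members. Without DMSO 2, JAL33 passed there too (-0.44, adjusted p = 0.0397). The comparisons of A and of B with DMSO use the same 4 DMSO arrays.

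Auxin by itself left all 3 genes near their solvent level. IAA against DMSO (n = 4 each) gave log2 differences of 0.03 ± 0.07 for PYK10 (95% interval -0.11 to 0.17), -0.15 ± 0.13 for JAL33 (-0.42 to 0.12) and 0.03 ± 0.11 for JAL34 (-0.20 to 0.27), with adjusted p of at least 0.735. Without IAA 2 the differences were 0.02 for PYK10, -0.18 for JAL33 and 0.02 for JAL34. In this comparison 1.91% of all probe sets passed and 7.59% did not overlap, against 0 of 3 members for both. With a compound present no member passed between groups with and without IAA: IAA plus A against A gave 0.03 ± 0.07 for PYK10, 0.16 ± 0.14 for JAL33 and 0.07 ± 0.12 for JAL34, where 0.831% of probe sets passed. IAA plus B against B gave -0.0021 ± 0.08 for PYK10, -0.27 ± 0.15 for JAL33 and -0.11 ± 0.13 for JAL34, where 1.24% passed.

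Compound A added to auxin gave smaller differences than the threshold required. IAA plus A (n = 3) against IAA (n = 4) gave -0.09 ± 0.07 for PYK10, -0.04 ± 0.14 for JAL33 and -0.21 ± 0.12 for JAL34, with adjusted p of at least 0.341. Without IAA 2 they were -0.08 for PYK10, -0.01 for JAL33 and -0.20 for JAL34. In this comparison 9.08% of all probe sets passed. Values did not overlap for 1 of 3 members, JAL34, against 31.3% of all probe sets.

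The 2 compounds were also set against each other at the same dose and time, once without and once with auxin. A against B gave 0.07 ± 0.07 for PYK10 (95% interval -0.08 to 0.22), 0.07 ± 0.14 for JAL33 (-0.22 to 0.36) and 0.02 ± 0.12 for JAL34 (-0.23 to 0.28), where 6.37% of probe sets passed. With auxin, IAA plus A against IAA plus B gave 0.50 ± 0.15 for JAL33 (95% interval 0.19 to 0.81; adjusted p = 0.0799), 0.20 ± 0.13 for JAL34 (-0.07 to 0.47) and 0.10 ± 0.08 for PYK10 (-0.06 to 0.26), where 2.82% passed. The JAL33 arrays of IAA plus A, at 11.69 to 11.90, were above those of IAA plus B, at 11.24 to 11.42; 1 of 3 members did not overlap, against 25.2% of all probe sets. JAL33 passed in this comparison without DMSO 4 (0.50, adjusted p = 0.0214).

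Whether a compound changed the response to auxin was addressed by the interactions, and no member passed in any of them. For A they were -0.0003 ± 0.10 for PYK10, 0.31 ± 0.19 for JAL33 and 0.04 ± 0.17 for JAL34, where 0.0484% of probe sets passed. For B they were -0.03 ± 0.10, -0.12 ± 0.20 and -0.14 ± 0.17 in the same order, where 0.0132% passed. The difference between both interactions, A minus B, was 0.03 ± 0.10 for PYK10, 0.43 ± 0.20 for JAL33 and 0.18 ± 0.18 for JAL34, and 0% of probe sets passed in limma, while 782 had an unadjusted p below 0.05. JAL33 was among those (unadjusted p = 0.0492, limma adjusted p = 1.0). The fall of the lectin genes in IAA plus B against IAA is therefore not shown to differ from their difference in B against DMSO.

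**Figure D2:**
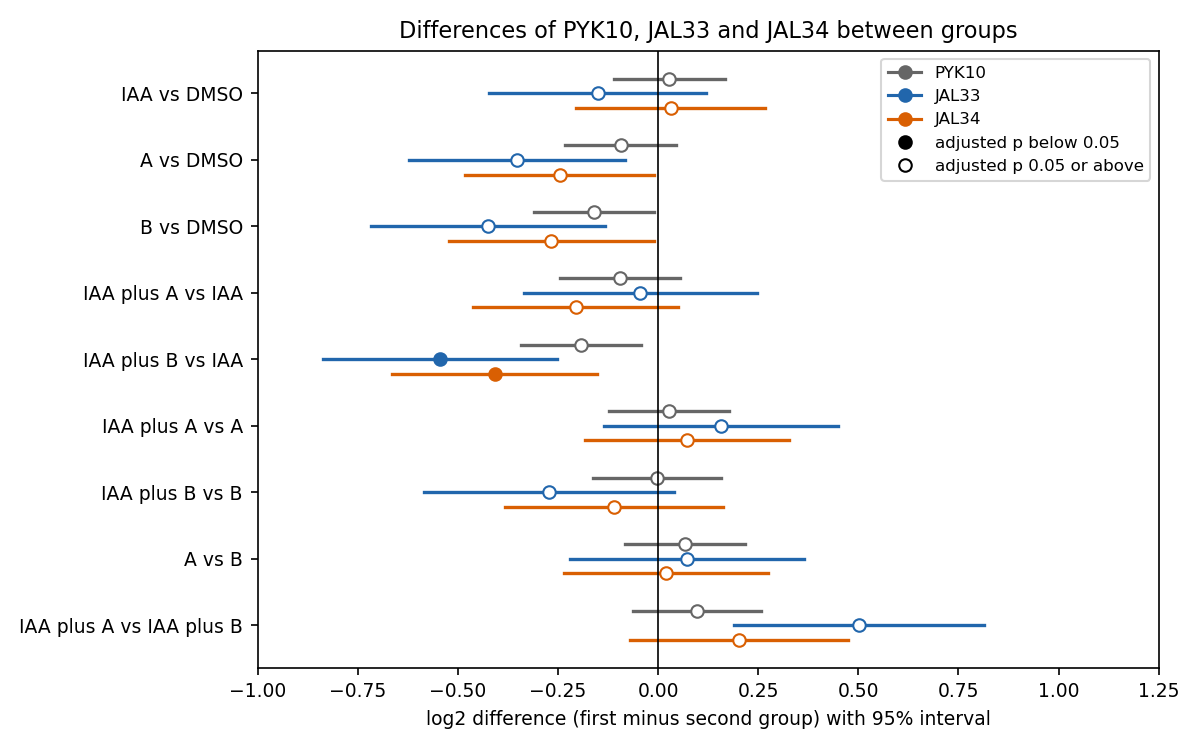
Log2 differences of PYK10, JAL33 and JAL34 in 9 comparisons (first minus second group) with 95% intervals; filled points passed at an adjusted p below 0.05. Filled points appear only for JAL33 (-0.55) and JAL34 (-0.41) in IAA plus B against IAA.

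The other genes of the ER body system were read from a list of 20 genes, chosen with earlier results of these data known. Of these, 7 had a probe set of their own: the 3 members, NAI1, NAI2, JAL22 and JAL23. A gene is called measured here if the annotation pairs a probe set with that gene alone. The annotation names no gene for 8730 probe sets, so a gene not measured in this sense may still be on the array. BGLU21 and BGLU22 share a probe set and are not reported. In IAA plus B against IAA all 7 had a log2 difference below 0, as did 50.5% of all probe sets, with a median of -0.44 (all probe sets -0.002). Of the 7, 4 passed as lower and 0 as higher, where 8.01% of all probe sets passed and 4.33% passed as lower. Beside the lectins JAL33 and JAL34 these were NAI1, which fell by 0.76 ± 0.22 (adjusted p = 0.0379), and NAI2, which fell by 0.44 ± 0.13 (adjusted p = 0.0348). NAI1 gave 6.43, 6.34 and 6.41 in IAA plus B, against 7.24, 6.86, 7.33 and 7.18 in IAA. NAI2 gave 11.56, 11.90 and 11.71 in IAA plus B, against 12.17, 12.19, 12.15 and 12.16 in IAA. Neither pair of groups overlapped, as was true of 24.8% of all probe sets. Without IAA 2, NAI1 had a difference of -0.86 (adjusted p = 0.0324) and NAI2 of -0.44 (adjusted p = 0.0756).

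JAL22 and JAL23, the lectins of the limiting type, had log2 differences of -0.28 ± 0.19 (adjusted p = 0.461) and -0.50 ± 0.27 (adjusted p = 0.3) in the same comparison. JAL22 gave 10.59, 11.01 and 10.97 in IAA plus B, against 11.08, 11.31, 11.10 and 11.06 in IAA. Like the lectin calls, those of the NAI genes were marginal. NAI1 lost the threshold without any one of IAA 1, 3 and 4 and the 3 IAA plus B arrays (adjusted p of 0.0805 to 0.103), and NAI2 without any one of the 4 IAA arrays and IAA plus B 1 and 3 (0.0674 to 0.178); the differences then were -0.78 to -0.70 and -0.45 to -0.36.

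Elsewhere 0 of the 7 ER body genes passed. All 7 had a log2 difference below 0 in A against DMSO (median -0.29, all probe sets -0.02) and in IAA plus A against IAA (median -0.21, all probe sets -0.03). Of all probe sets 56.1% and 58.6% were below 0 in these 2 comparisons. In B against DMSO 5 of 7 were below 0 (median -0.23, all probe sets 0.01), against 47.4% of all probe sets. In IAA against DMSO 2 of 7 were (median 0.03, all probe sets -0.003), against 51.1%. The 7 genes are not independent of each other, and these counts have no test. NAI2 came nearest to the threshold in IAA plus A against IAA, with 11.82, 11.75 and 11.81 in IAA plus A, against 12.15 to 12.19 in IAA, a difference of -0.38 ± 0.13 (adjusted p = 0.0717). It passed there when DMSO 4 or A 4 was left out (adjusted p of 0.0298 and 0.0328), when only the compared groups were fitted (0.00034), with array weights (0.000788) and without the 4 arrays (0.00988), and in A against DMSO when A 4 was left out (-0.39, adjusted p = 0.0287). In IAA plus B against B, NAI1 had a difference of -0.68 ± 0.24 (adjusted p = 0.295), which passed when only the compared groups were fitted (0.0159). NAI1 spread widely in DMSO, with 7.08, 7.16, 7.90 and 8.27, and IAA against DMSO gave -0.45 ± 0.20 (adjusted p = 0.41).

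**Figure D3:**
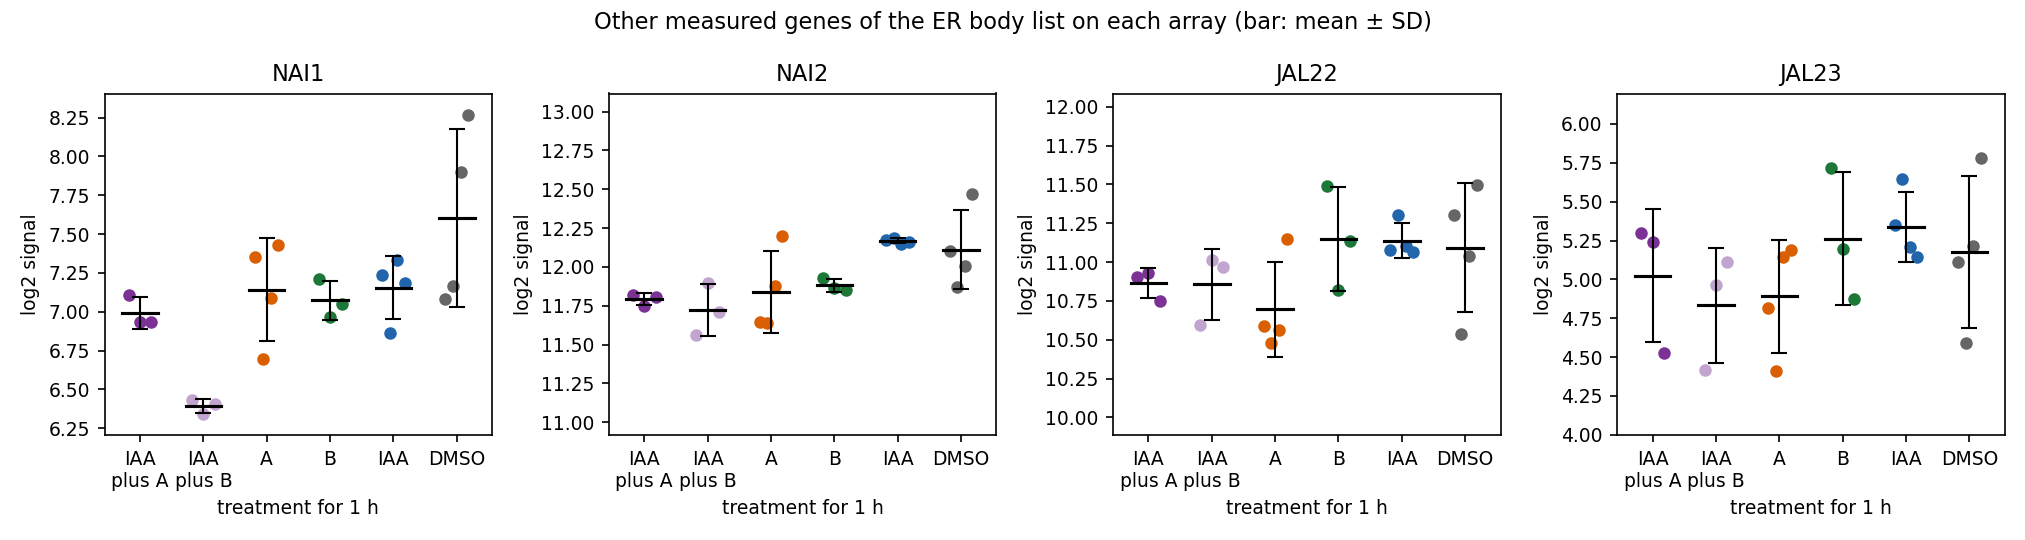
Log2 signal of NAI1, NAI2, JAL22 and JAL23 on each array (points) by treatment group, with mean and SD (bars); the 4 vertical axes have the same span. NAI1 is lowest in IAA plus B, at 6.34 to 6.43, and its DMSO arrays spread from 7.08 to 8.27.

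Over the 21 arrays the 2 lectin genes followed each other more closely than either followed PYK10. JAL33 and JAL34 had Pearson's r = 0.827 and Spearman's rho = 0.806, PYK10 and JAL33 r = 0.721 and rho = 0.75, and PYK10 and JAL34 r = 0.636 and rho = 0.646, with permutation p, adjusted over the 6 relations computed, of at most 0.0042. Without the 2 arrays farthest from the median of the first gene, r was 0.787, 0.578 and 0.559. The treatments and each array's scaling are shared by all genes on an array, so the deviations from group means were compared as well, with permutations within groups. JAL33 and JAL34 then had r = 0.728 and rho = 0.714 (adjusted permutation p = 0.0169 and 0.00663), and r = 0.616 without DMSO 4 and A 4. PYK10 and JAL33 had r = 0.54 and rho = 0.275 (0.116 and 0.319), which rested on DMSO 2 and DMSO 4, since r was 0.164 without them. PYK10 and JAL34 had r = 0.306 and rho = 0.251 (0.301 and 0.319), and r = -0.079 without the same 2 arrays. Across all probe sets the median r with JAL33 was 0.01 for signals and 0.04 for deviations. By deviations, 9.7% of all probe sets had r over 0.5 with JAL33. JAL22, a lectin of the limiting type, was then closer to JAL33 (r = 0.788, rank 75) than JAL34 was (rank 233). For JAL34, JAL33 stayed the closest of the measured ER body genes (rank 95), before JAL23 (r = 0.691, rank 195). The likeness by deviations was thus not particular to JAL33 and JAL34.

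The 5 named genes most like each member over the 21 arrays were all outside the ER body list. These correlations are descriptions without a test, since they are the highest of many. For JAL33 the 5 highest among probe sets with 1 gene were APS4, an ATP sulfurylase (r = 0.904), AT4G29270 (0.9), AT3G46700 (0.884), MSRB5, a methionine sulfoxide reductase (0.88), and AT1G06620 (0.88). For JAL34 they were AT4G15390 (r = 0.895), AT4G35220 (0.876), AT1G06620 (0.868), MSRB5 (0.863) and APS4 (0.856), so that 3 of 5 were shared with JAL33. For PYK10 they were AT1G74300 (r = 0.834), AT5G54020 (0.823), AT4G29480 (0.821), the tetraspanin TET12 (0.81) and AT4G29270 (0.805). Among all probe sets JAL33 ranked 25th in likeness to JAL34, while JAL34 ranked 50th in likeness to JAL33, and JAL33 ranked 154th in likeness to PYK10. By deviations from group means the 5 highest were AT2G13760, AT1G74300, AT5G07040, AT3G21410 and AT2G35733 for PYK10 (r of 0.804 to 0.874), AT4G18720, AT3G46170, APS4, AT1G77420 and AT3G30160 for JAL33 (0.858 to 0.903), and AT4G15390, AT1G12160, AT1G68730, AT5G47830 and DI21 for JAL34 (0.838 to 0.902).

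As a gene abundant in roots, PYK10 can be set beside other root genes. Of 48 root markers listed, 3 had a probe set paired with them alone: EXPA7, EXPA18 and UPB1. The others may be among the probe sets without a gene name. EXPA7 and EXPA18 are expansins of root hairs, and UPB1 is a transcription factor that controls peroxidases in the root. With compound B both expansin genes fell, and PYK10 did not pass the test. Of the 3 root markers 2 passed in B against DMSO, where 8.75% of all probe sets passed. The same 2 passed in IAA plus B against IAA, where 8.01% passed. In B against DMSO, EXPA7 fell by 1.96 ± 0.22 (95% interval -2.41 to -1.51; adjusted p = 2.54e-06) and EXPA18 fell by 2.50 ± 0.31 (-3.14 to -1.85; adjusted p = 1.18e-05), whereas the interval for PYK10 was -0.31 to -0.01. EXPA7 gave 6.02, 5.85 and 5.75 in B, against 7.97, 7.38, 8.14 and 7.85 in DMSO. These groups did not overlap, as was true of 16.9% of all probe sets. In IAA plus B against IAA, EXPA7 fell by 2.28 ± 0.22 and EXPA18 fell by 2.55 ± 0.31, against -0.19 for PYK10, and UPB1 had a log2 difference of 0.20. Without IAA 2 the differences were -2.17 for EXPA7 and -2.47 for EXPA18.

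The summed linear signal of the 3 root markers was 276 to 312 in IAA plus B, against 856 to 1043 in IAA, and 231 to 291 in B, against 419 to 910 in DMSO. These sums follow the 2 expansins: UPB1 passed in neither comparison, with means of 7.22 in IAA plus B and 7.02 in IAA, and a difference of -0.16 in B against DMSO (adjusted p = 0.76). Of the 5 shoot markers measured (RCA, LHCB4.1, SBPASE, PRK and CLV3) 0 passed in any comparison. Of all probe sets 0% to 9.08% passed, depending on the comparison, so 0 of 5 is near that share. The summed signal of the shoot markers was 22652 to 24976 in IAA plus B, against 23886 to 24829 in IAA, and 21606 to 24184 in B, against 21149 to 24586 in DMSO. Most of the shoot sum comes from RCA and LHCB4.1, with means of 13.14 and 13.02 in IAA plus B, and little from CLV3, at 5.22. Whether the probes of RCA, LHCB4.1 and PYK10 were near saturation was not tested, so the sizes of change of PYK10 and of the expansins may not be comparable. No marker was listed at 0, but the lowest log2 signal of the table was 3.02, so this says nothing about detection. The part of a change in root tissue, or of the fall in root hair genes, in the lower lectin signals of IAA plus B was not tested.

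**Figure D4:**
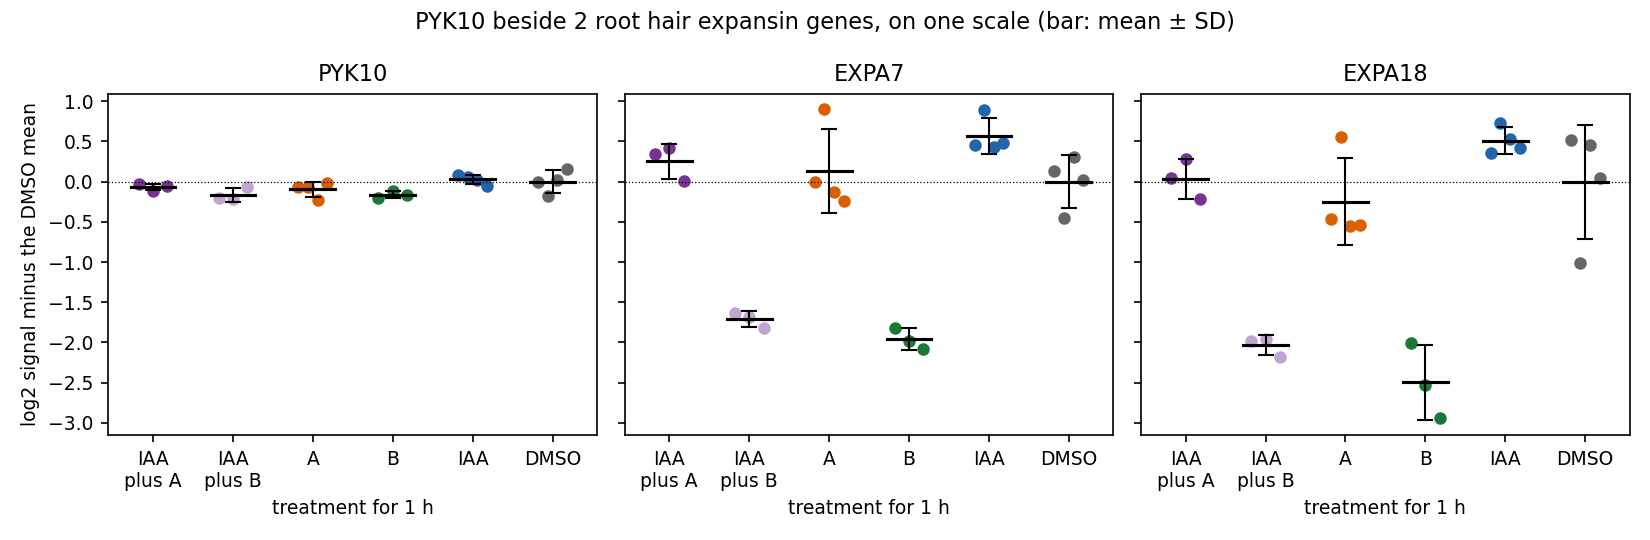
PYK10, EXPA7 and EXPA18 on each array (points), as log2 signal minus the gene's mean over the DMSO arrays, on 1 common axis, with mean and SD (bars). In B against DMSO the difference is -1.96 for EXPA7 and -2.50 for EXPA18, while PYK10 spans 0.39 over all arrays. The PYK10 signals lie close to the top of the scale, and whether its probes were near saturation was not tested.

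PYK10 belongs to the beta-glucosidase family, of which 22 genes were measured. In A against DMSO 3 of the 22 rose and 0 fell (median 0.02), where 8.39% of all probe sets passed. They were BGLU28, a glucosidase associated with sulfur starvation, by 2.41 ± 0.20 (adjusted p = 3.73e-08), BGLU27 by 1.95 ± 0.10 (adjusted p = 3.45e-11), and BGLU46, which acts on monolignol glucosides, by 0.73 ± 0.15 (adjusted p = 0.00293). BGLU28 gave 7.65, 7.61, 7.59 and 8.24 in A, against 5.49, 5.20, 5.26 and 5.50 in DMSO. BGLU27 gave 6.81, 6.93, 6.44 and 6.66 in A, against 4.95, 4.74, 4.68 and 4.66 in DMSO. The groups did not overlap for these 2 genes, but did for BGLU46; 9.21% of all probe sets did not overlap. In IAA plus A against IAA the same 3 genes rose, by 1.95 ± 0.22, 1.24 ± 0.11 and 0.81 ± 0.16, and BGLU44 fell by 1.14 ± 0.33 (adjusted p = 0.033), so that 4 of 22 passed, against 9.08% of all probe sets. The BGLU44 call was lost when 1 of 6 arrays was left out (IAA 2, 3 and 4 and the 3 IAA plus A arrays), with adjusted p of up to 0.132.

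With B, 1 of the 22 genes passed in each comparison, against 8.75% of all probe sets in B against DMSO and 8.01% in IAA plus B against IAA. In B against DMSO, BGLU28 rose by 1.05 ± 0.22 (adjusted p = 0.00321), with 7.19, 5.93 and 6.13 in B, against 5.20 to 5.50 in DMSO, and none of the other 21 passed. In IAA plus B against IAA 1 gene passed, BGLU36, which fell by 0.25 ± 0.08 (adjusted p = 0.0441) and no longer passed when 1 of 9 arrays was left out (adjusted p of 0.0508 to 0.175), with no intensity trend (0.0685) or without the 4 arrays (0.0927). Its means of 3.78 in IAA plus B and 4.03 in IAA lie near the lowest signals of the table. Tested directly, A exceeded B for BGLU27 by 1.79 ± 0.11 (adjusted p = 1.65e-08) and for BGLU28 by 1.36 ± 0.22 (adjusted p = 0.00088), and IAA plus A exceeded IAA plus B for BGLU27 by 1.16 ± 0.12 and for BGLU28 by 1.57 ± 0.23. IAA plus A was below A for BGLU27 (-0.76 ± 0.11, adjusted p = 0.000511). Fitted on the compared groups only, the calls of BGLU46 in A against DMSO (adjusted p = 0.0567), BGLU28 in B against DMSO (0.0684) and BGLU27 in IAA plus A against A (0.0682) were lost. PYK10 passed in none of these comparisons.

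**Figure D5:**
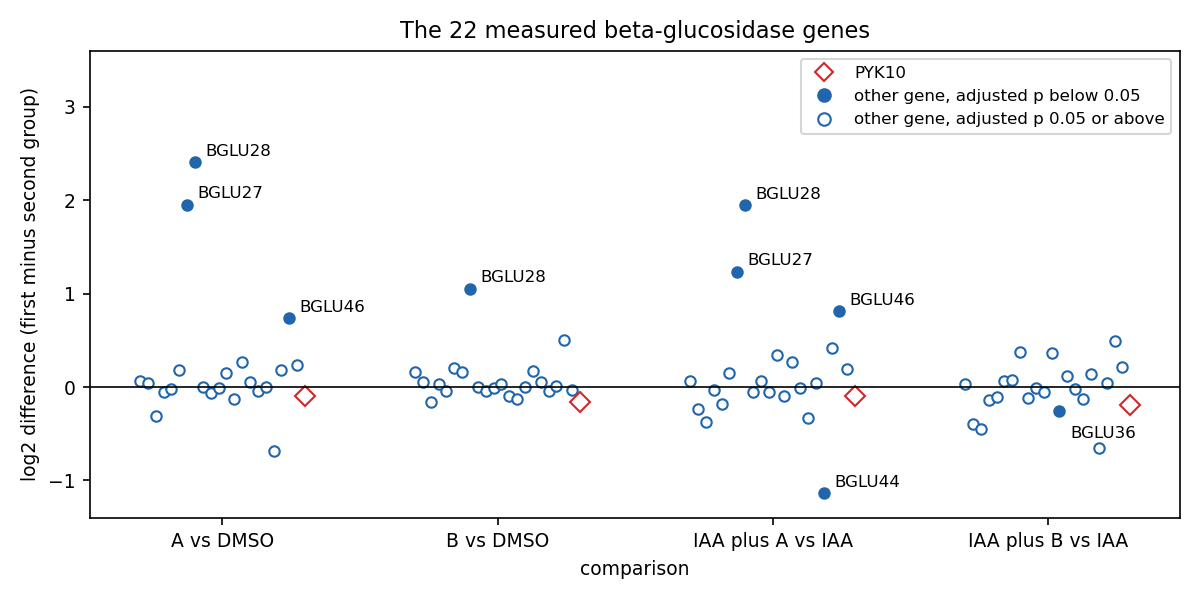
Log2 differences (first minus second group) of the 22 measured beta-glucosidase genes in 4 comparisons; filled points passed at an adjusted p below 0.05 and the diamond is PYK10. BGLU27 and BGLU28 are 1.95 and 2.41 higher with A than with DMSO, while PYK10 lies between -0.19 and -0.09 in all 4.

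Other lists around the system had few measured members. Of 3 ER chaperone and stress genes, 1 passed in IAA plus B against IAA, where 8.01% of all probe sets passed. It was bZIP60, a transcription factor of the unfolded protein response, which rose by 0.48 ± 0.11 (adjusted p = 0.00586). Its means were 9.08 in IAA, 9.43 in DMSO and 9.57 in IAA plus B. It had similar differences in B against DMSO (0.34, adjusted p = 0.0537) and in IAA plus A against IAA (0.34, adjusted p = 0.0554). The difference was smaller in A against DMSO (0.14, adjusted p = 0.476). In IAA against DMSO it was -0.35 (adjusted p = 0.0892), so the differences against IAA are taken from a group below DMSO. Neither CRT1b nor ERDJ3B passed in any comparison. The single measured gene of indole glucosinolate synthesis, UGT74B1, and the single jasmonate gene, JMT, passed in none. None of the 14 myrosinase, specifier and binding protein genes listed had a probe set paired with it alone. Whether they are among the probe sets without a gene name was not tested.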

How the data were processed

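RNA of 21 seedling samples was hybridised to ATH1 arrays of 1 lot, per the file headers. The deposited table holds the authors' log2 signal for each of 22810 probe sets; the method of summarising and normalising is not given in sources used here. The other deposited files hold text fields (unit "other"), whose scanner entries are empty, so no array batch could be fitted. After removal of 64 control probe sets, 22746 were fitted with limma 3.58.1 in R 4.3.3, with 1 mean per group over all 21 arrays, moderation following the mean intensity, two-sided tests and Benjamini-Hochberg adjustment over all probe sets at 0.05. The number of arrays limits the precision. Genes were named for the 13513 probe sets paired with 1 gene, with current symbols from RefSeq; 503 had several and 8730 none. Members and lists were chosen with earlier results of these data known: all measured ER body and jacalin genes were named, and up to 3 per direction of other lists. On simulated data, 93% of changes of 1 log2 unit and 54% of changes of 0.5 were recovered in IAA plus B against IAA, with 8 false calls among 22746 probe sets. The simulation used independent normal noise and 200 changed probe sets, whereas 1821 passed in the real comparison. These shares therefore need not hold for the real arrays. The alternatives were: only the upper 60% by mean signal, quantile scaling, the compared groups only, no intensity trend, array weights, a replicate block, and leaving out single arrays or 4 together. Correlations used 100000 permutations in SciPy 1.17.1.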

Additional observations from a re-analysis of the deposited data

Results flagged for a closer look

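In groups of 4 arrays, the gap between the most extreme array and its nearest neighbour was compared with the range of the group. Of 45 groups checked over 15 genes, 7 had an array beyond the 95% limit of Dixon's test, which chance gives in about 1 of 20 groups.

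Among the 3 members the only such value was JAL34 in A 1, at 12.06, against 12.43 to 12.49 on the other A arrays. JAL22 stood at 11.15 in A 4, above the other A arrays, and at 11.31 in IAA 2. EXPA7 stood at 8.73 in IAA 2 and EXPA18 at 8.82 in A 2, each above the rest of its group. UPB1 stood at 7.75 and BGLU28 at 8.24, both in A 4.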

How the results depend on the processing

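For the 36 member differences, 1008 alternative values were computed, of which 939 kept direction and side of the threshold, 16 lost the threshold, 11 gained it and 42 changed sign. The sign changes concerned differences that did not pass, and the cause was not tested. With quantile scaling PYK10 gave -0.0046 in IAA against DMSO and -0.029 in IAA plus A against A, and JAL34 gave -0.0101 in A against B. With array weights JAL33 passed in A against DMSO (-0.3843), B against DMSO (-0.4677) and IAA plus A against IAA plus B (0.5489), and PYK10 changed sign in IAA plus B against B (0.011) and in the interactions with A (0.0492) and B (0.0019). With only the compared groups, JAL33 passed in IAA plus A against IAA plus B (0.5013, adjusted p = 0.0188). Without the 4 arrays JAL34 lost its call in IAA plus B against IAA (-0.3885), JAL33 passed in IAA plus A against IAA plus B (0.4854), and signs changed for PYK10 in IAA plus B against B (0.02), for JAL34 in A against B (-0.0213) and for PYK10 in the interactions with A (0.0197) and B (0.0032).

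Same-numbered arrays did not deviate together (48 pairs, r of -0.426 to 0.536, median 0.032), so the replicate number is not taken as pairing. With the replicate block JAL34 gave -0.3665 in IAA plus B against IAA (adjusted p = 0.0823), JAL33 gave 0.5013 in IAA plus A against IAA plus B (adjusted p = 0.0464), and signs changed for JAL33 in IAA plus A against IAA (0.0282) and A against B (-0.0001), JAL34 in A against B (-0.0214) and PYK10 in the interaction with A (0.0171).

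Leaving out 1 array at a time gave, for PYK10, -0.0318 to 0.0808 in IAA against DMSO, -0.2213 to -0.1086 in B against DMSO, -0.017 to 0.0542 in IAA plus A against A, -0.0521 to 0.0258 in IAA plus B against B, -0.0528 to 0.0598 and -0.0829 to 0.0298 in the interactions with A and B, and -0.0149 to 0.0801 in their difference. For JAL33 it gave -0.442 to -0.2033 in A against DMSO, -0.5294 to -0.2755 in B against DMSO, -0.0869 to 0.0199 in IAA plus A against IAA, -0.5971 to -0.5094 in IAA plus B against IAA, -0.0462 to 0.1771 in A against B, and 0.4584 to 0.5652 in IAA plus A against IAA plus B. For JAL34 it gave -0.0295 to 0.1308 in IAA against DMSO, -0.4447 to -0.3885 in IAA plus B against IAA, -0.0288 to 0.167 in IAA plus A against A, -0.1788 to 0.0268 in IAA plus B against B, -0.0482 to 0.1574 in A against B and -0.0608 to 0.1351 in the interaction with A. For NAI2 in IAA against DMSO it gave -0.0236 to 0.1758.

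Over all alternatives the number of probe sets past the threshold ranged from 1262 to 3670 in IAA plus B against IAA (1821 as reported), 881 to 4048 in A against DMSO (1909), 1080 to 2752 in B against DMSO (1991), 1225 to 6670 in IAA plus A against IAA (2065), 212 to 531 in IAA against DMSO (435), 133 to 683 in IAA plus A against A (189), 218 to 360 in IAA plus B against B (281), 485 to 3310 in A against B (1448), 243 to 3518 in IAA plus A against IAA plus B (642), 5 to 26 and 0 to 10 in the interactions with A (11) and B (3), and 0 to 11 in their difference (0). A block for array batch was not run, since all arrays have 1 lot and the scanner fields are empty. Few list genes had a probe set with a gene name here, and 3 or 4 arrays a group limit what can be detected.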
